A study of Mus musculus with 12 samples.

Results

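Messenger RNA of 6 adenylyl cyclases (Adcy1, Adcy2, Adcy3, Adcy5, Adcy8 and Adcy9) and 4 cyclic nucleotide phosphodiesterases (Pde1a, Pde1b, Pde2a and Pde10a) was followed in the cortex and cerebellum of SCA1 KI and WT mice. The 10 genes were taken by symbol from a table of 15759 genes, and all 10 passed the filter on low counts that left 15369 tested genes. There were 3 libraries in each of 4 groups, namely WT cortex, SCA1 KI cortex, WT cerebellum and SCA1 KI cerebellum, all from C57BL/6J mice at 12 weeks of age. SCA1 KI mice carry Atxn1 154Q/2Q, a knock-in in which 1 allele of the mouse gene encodes ataxin-1 with an expanded polyglutamine tract under its own regulatory elements, and WT mice were littermates without it. Each tissue was dissected whole, so every library mixes all cells of its region, and fewer cells of a type cannot be told apart from less RNA per cell. The 2 regions were profiled as separate datasets, so a difference between regions cannot be told apart from a difference in preparation. The labels list male mice and the methods describe both sexes.

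Adenylyl cyclases make cAMP from ATP, and phosphodiesterases break down cAMP, cGMP or both. Receptors coupled to the G protein Gs raise cyclase activity and receptors coupled to Gi lower it, and the cAMP formed acts on protein kinase A, on exchange factors and on ion channels. The cyclases differ in what else regulates them. Adcy1 and Adcy8 are stimulated by calcium and calmodulin and serve synaptic plasticity, Adcy3 is best known from olfactory neurons and neuronal primary cilia, Adcy2 responds to G protein beta-gamma subunits, Adcy5 is inhibited by calcium and is the main cyclase of the striatum, and Adcy9 is poorly sensitive to forskolin. Of the phosphodiesterases, Pde1a and Pde1b are activated by calcium and calmodulin, Pde2a is stimulated by cGMP, and Pde10a is known for its high level in striatal medium spiny neurons.

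The cyclases Adcy1, Adcy9 and Adcy2 were lower in SCA1 KI cortex, and none of the 4 phosphodiesterases passed the test there. DEGs were taken from limma, fitted on log2(normalized count + 1) over all tested genes, as those with an adjusted p (Benjamini-Hochberg) under 0.05 whose LFC, the log2 fold change of SCA1 KI against WT, was beyond 0.25 in either direction. By this rule 3 of the 10 genes were DEGs in the cortex, all 3 lower, where 15.6% of all tested genes were DEGs and 10.8% were lower. In the cerebellum 1 of the 10, Adcy2, was a DEG and was lower, where 5.36% of all tested genes were DEGs and 4.44% were lower. The median LFC of the 10 genes was -0.26 in the cortex and -0.16 in the cerebellum, against -0.003 and -0.005 for all tested genes.

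The promoters of the 3 cyclases lower in the cortex are shown because these genes fell together there. The windows are from RefSeq on GRCm38.p6, run from 250 bases before the start of transcription to 50 bases from it on, and are written 5′ to 3′ on the strand of the gene. Capitals mark the GC box GGGCGG and the cAMP response element half-site TGACG, each on either strand.
Adcy1, chr11:7063183-7063482, plus strand: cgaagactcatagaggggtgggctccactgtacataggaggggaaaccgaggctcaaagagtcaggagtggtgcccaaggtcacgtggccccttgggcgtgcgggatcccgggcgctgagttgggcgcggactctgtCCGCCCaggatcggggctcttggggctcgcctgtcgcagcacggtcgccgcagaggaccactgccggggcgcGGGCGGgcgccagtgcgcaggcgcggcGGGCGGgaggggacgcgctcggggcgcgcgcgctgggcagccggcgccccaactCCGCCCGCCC
Adcy2, chr13:68999492-68999791, minus strand: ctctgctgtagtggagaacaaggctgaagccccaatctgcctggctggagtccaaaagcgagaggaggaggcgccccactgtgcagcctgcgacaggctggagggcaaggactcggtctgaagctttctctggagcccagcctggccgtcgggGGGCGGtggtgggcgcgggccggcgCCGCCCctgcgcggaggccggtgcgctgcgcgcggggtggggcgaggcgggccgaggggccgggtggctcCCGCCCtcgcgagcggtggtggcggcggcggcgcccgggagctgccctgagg
Adcy9, chr16:4420449-4420748, minus strand: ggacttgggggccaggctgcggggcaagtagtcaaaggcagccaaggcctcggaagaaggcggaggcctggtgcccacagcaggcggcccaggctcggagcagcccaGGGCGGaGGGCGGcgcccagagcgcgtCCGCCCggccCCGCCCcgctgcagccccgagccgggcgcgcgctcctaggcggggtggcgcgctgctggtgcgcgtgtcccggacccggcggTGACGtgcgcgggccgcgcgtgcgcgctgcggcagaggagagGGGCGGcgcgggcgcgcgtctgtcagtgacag
The Adcy1 window held 5 GC boxes, the Adcy2 window 3 and the Adcy9 window 5, of which some overlapped, and 35.7% of 32851 promoter windows of the same length held at least 1. Among the 20 windows of the 9 genes with an entry, 9 held it, in 8 genes, Adcy3, Adcy5, Pde1b, Pde2a and Pde10a included. The half-site occurred in the Adcy9 window, once, starting 24 bases before the start of transcription, and in none of the other 2, while 3 of the 20 windows and 20.8% of all windows held it. The full element TGACGTCA, which contains the half-site on both strands, was in 1.79% of all windows and in none of the 20. The octamers TGAATGAA and TGAATGGA, which are bound by Capicua, a partner of ataxin-1, were searched on both strands as well. TGAATGAA was in 1.30% of all windows and in 1 of the 20, at a start of Pde1b, and TGAATGGA was in 1.21% of all windows and none of the 20. The GC content of the 3 printed windows was between 74.0% and 78.3%. A match of letters is a description of the sequence only. No entry was found for Adcy8.

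The libraries held between 29520855 and 51311309 reads on genes, and the count for a member ranged from 173 reads, for Pde1a in a cerebellar WT library, to 131979 reads, for Adcy1 in a cerebellar KI library. Replicates differed by more than sampling noise, and a p-value sets a difference between groups against the spread between libraries. In limma the 4 groups of both regions shared 1 estimate of this spread for each gene. Leaving out a cortical library therefore changed cerebellar p-values too. In the deposited table cortical libraries carry letters (WT B, C and D, and KI A, E and F) and cerebellar libraries digits (WT 2, 4 and 6, and KI 1, 3 and 5). Atxn1, the targeted gene, is read in all groups, and its summed count does not separate the expanded from the normal allele. Its mean normalized count was 7370 in WT and 6040 in KI cortex, with an LFC of -0.31 and an adjusted p of 0.132 by limma.

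Markers of neighbouring tissue differed between libraries, and whether dissection or expression differed was not tested. Of the 10 striatal markers the summed level was 24778 in cortical WT library B against 13226 and 15773 in the other WT libraries and 7585 to 14167 in KI cortex. Library B also had the highest sum of 8 oligodendrocyte markers, 138481 against 82434 and 88396 in the other WT libraries, of 4 hippocampal markers, 1554 against 703 and 717, and of 6 choroid plexus markers, 1754 against 281 and 294. Cerebellar WT libraries held more of 5 thalamic markers, 8404 to 13518 against 4780 to 5113 in KI cerebellum, and the highest level was in WT library 2, which also had the lowest sum of 9 granule cell markers, 162045 against 222474 and 230851 in the other WT libraries. Oligodendrocyte markers summed to 179796 to 269103 in WT cerebellum, highest in library 2, and to 154098 to 154122 in KI, with 0 of 8 called by limma or edgeR, 3 lower by DESeq2 and 6 lower at an unadjusted p under 0.05 in limma. Midbrain markers were lower in KI cerebellum for 5 of 6 genes and higher in KI cortex for 3 of 6, with sums of 957 to 1682 in KI cortex against 297 to 360 in WT. Neuronal markers were lower in KI cortex as well. Of 6 pan-neuronal markers 4 were called lower in KI cortex, with sums of 230187 to 248674 against 318894 to 340557. Called lower too were 3 of 10 markers of cortical excitatory neurons, 3 of 6 of astrocytes, 2 of 7 of forebrain interneurons and 3 of 10 of striatum. Of 8 markers of Purkinje cells, which are cells of the cerebellum, 5 were called lower and 1 higher in KI cortex. Pcp2 among them was at 28.5 normalized counts or less in the cortex. In KI cerebellum 2 of the 8 were called lower and 0 higher, with sums of 295894 to 333319 against 335636 to 418718 in WT. Over all tested genes 10.8% were lower and 4.82% higher in the cortex, and 4.44% were lower in the cerebellum. The region labels held for their defining markers. Gabra6 of granule cells was at 42.1 normalized counts or less in the cortex and at 20711 or more in the cerebellum, and Tbr1 of cortical neurons was at 46.3 or less in the cerebellum and 5676 or more in the cortex.

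**Figure D1:**
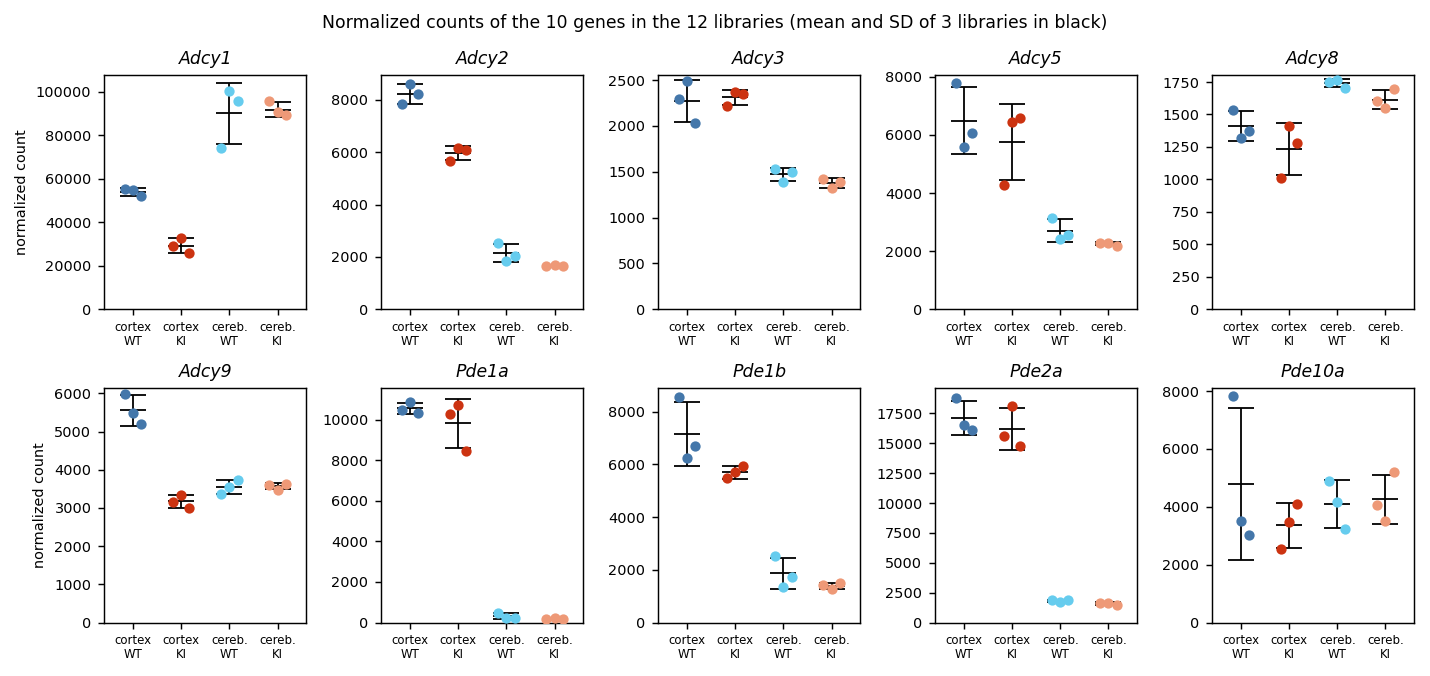
Normalized count, on a linear axis from 0, of each of the 10 genes in the 12 libraries. Points are libraries, and the black line and bars are the mean and SD of the 3 libraries of a group. In the Adcy1 and Adcy9 panels the SCA1 KI cortical libraries lie below all WT cortical libraries, while the cerebellar groups overlap.

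Adcy1 had the lowest cortical LFC of the 10 genes, although with the length and GC trend removed it was -0.69 against -0.70 for Adcy9. This cyclase is abundant in cortex, hippocampus and cerebellar granule cells and is linked to long-term potentiation. It had 55175, 55022 and 52012 normalized counts in WT cortical libraries B, C and D, and 28986, 32866 and 26034 in KI libraries A, E and F. Every KI library lay far below every WT library. The group means were 54070 ± 1784 and 29295 ± 3427 (SD, n = 3), so that the KI mean was 54.2% of the WT mean. The LFC was -0.89 with a standard error of 0.108 and an adjusted p of 0.000155 by limma. In the cerebellum Adcy1 had 74214, 100367 and 95820 normalized counts in WT libraries 2, 4 and 6, and 95686, 90618 and 89165 in KI libraries 1, 3 and 5. The groups overlapped there, with WT library 2 lowest. The LFC in the cerebellum was 0.04, with a 95% interval of -0.20 to 0.27 and an adjusted p of 0.910 by limma.

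Adcy9 had the smallest p of the 10 genes in the cortex, rank 26 among all tested genes. This cyclase is widely expressed in the brain. It had 5995, 5485 and 5202 normalized counts in the WT cortical libraries B, C and D, and 3154, 3352 and 3002 in KI libraries A, E and F. The KI libraries lay together and below all WT libraries. The means were 5561 ± 402 and 3169 ± 175 (SD, n = 3), an LFC of -0.81 with a standard error of 0.0655 and an adjusted p of 1.14e-05 by limma. The cerebellar libraries held 3374, 3554 and 3719 normalized counts in WT (2, 4 and 6) and 3598, 3482 and 3633 in KI (1, 3 and 5). These values overlapped, with an LFC of 0.01, a 95% interval of -0.13 to 0.15 and an adjusted p of 0.968 by limma.

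Adcy1 and Adcy9 were the genes whose change differed between the regions. The difference of the cortical and the cerebellar LFC was -0.93 with a standard error of 0.153 for Adcy1 and -0.82 with a standard error of 0.0926 for Adcy9. Their adjusted p for this interaction were 0.00290 and 0.000429 by limma. The interaction was called for 2 of the 10 genes, both with a lower LFC in the cortex, and for 8.15% of all tested genes, 4.89% with a lower LFC in the cortex. None of the 4 phosphodiesterases had an interaction call in limma, edgeR or DESeq2, and 0 had an unadjusted p under 0.05, against 21.4% of all tested genes. The fall of Adcy1 and Adcy9 in KI cortex went with lower neuronal markers, of which Rbfox3, the gene of the neuronal nuclear antigen NeuN, had an LFC of -0.72 and Snap25, of the synaptic release machinery, an LFC of -0.64. Slc17a7, the vesicular glutamate transporter of cortical excitatory neurons, had an LFC of -0.50. Rbfox3 had a cerebellar LFC of 0.01 and an interaction of -0.73, with an adjusted p of 0.00816 by limma. Of the 6 pan-neuronal markers 3 had an interaction call in limma, all with a lower LFC in the cortex. The part of the neuronal markers in the result was not tested.

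Adcy2 was called lower in both regions. In the cortex the WT libraries B, C and D held 7854, 8615 and 8227 normalized counts, and the KI libraries A, E and F held 5649, 6147 and 6097. No KI value reached the lowest WT value. The means were 8232 ± 381 and 5964 ± 274 (SD, n = 3), an LFC of -0.46 with a standard error of 0.0913 and an adjusted p of 0.00375 by limma. In the cerebellum Adcy2 had 2523, 1857 and 2040 normalized counts in WT libraries 2, 4 and 6, and 1634, 1700 and 1660 in KI libraries 1, 3 and 5. The KI libraries lay within a narrow range below all WT libraries. The LFC was -0.35 with an adjusted p of 0.0430 by limma. This call was lost in 10 of 12 fits with 1 library left out. Without WT library 2, the highest of the 6, the LFC was -0.23 and the adjusted p 0.106. Without cortical library B, C, D, E or F the LFC stayed at -0.35 and the adjusted p was 0.0523 to 0.0582, and without KI library 1, 3 or 5 it was 0.109 to 0.153. Without WT library 6 it was 0.0790. The interaction of Adcy2 was -0.11 with a 95% interval of -0.39 to 0.17 and an adjusted p of 0.678 by limma.

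The remaining cyclases, Adcy3, Adcy5 and Adcy8, were not DEGs in either region. Adcy3 had 2291, 2491 and 2032 normalized counts in WT cortex (B, C and D) and 2219, 2374 and 2345 in KI cortex (A, E and F), so the KI values lay within the WT range. Its LFC was 0.03 in the cortex, with a 95% interval of -0.13 to 0.19. In the cerebellum it had 1527, 1385 and 1500 normalized counts in WT and 1426, 1320 and 1391 in KI, which overlapped, with an LFC of -0.09 and a 95% interval of -0.26 to 0.07. Its exons overlap those of Cenpo on the other strand, and whether counting used the strand is not given in the sources used here. Adcy8 had 1538, 1315 and 1371 normalized counts in WT cortex and 1013, 1413 and 1277 in KI cortex, with an LFC of -0.20 and a 95% interval of -0.42 to 0.02. In the cerebellum all 3 KI values of Adcy8, 1601, 1551 and 1693, were below the WT values of 1752, 1763 and 1708, with an LFC of -0.11 and an adjusted p of 0.674 by limma. The groups of Adcy8 overlapped in the cortex and were separate by a small margin in the cerebellum.

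Adcy5 is a cyclase of striatal neurons. It had 7800, 5594 and 6076 normalized counts in WT cortical libraries B, C and D, and 4263, 6457 and 6586 in KI libraries A, E and F. The highest value was in WT library B and the lowest in KI library A, which were also the libraries with the highest and the lowest sum of striatal markers. Between these the orders differed, since KI library E was above WT libraries C and D in Adcy5 and below both in the striatal sum. Library A also had the lowest cortical sums of hippocampal, astrocyte and endothelial markers and the highest of midbrain markers. The cortical LFC was -0.18 with a 95% interval of -0.53 to 0.17, and without KI library A it was 0.02. In the cerebellum the WT libraries 2, 4 and 6 held 3148, 2404 and 2550 normalized counts and the KI libraries 1, 3 and 5 held 2284, 2275 and 2192. The groups did not overlap, but the adjusted p was 0.482 by limma, at an LFC of -0.25. WT library 2 was again the highest.

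**Figure D2:**
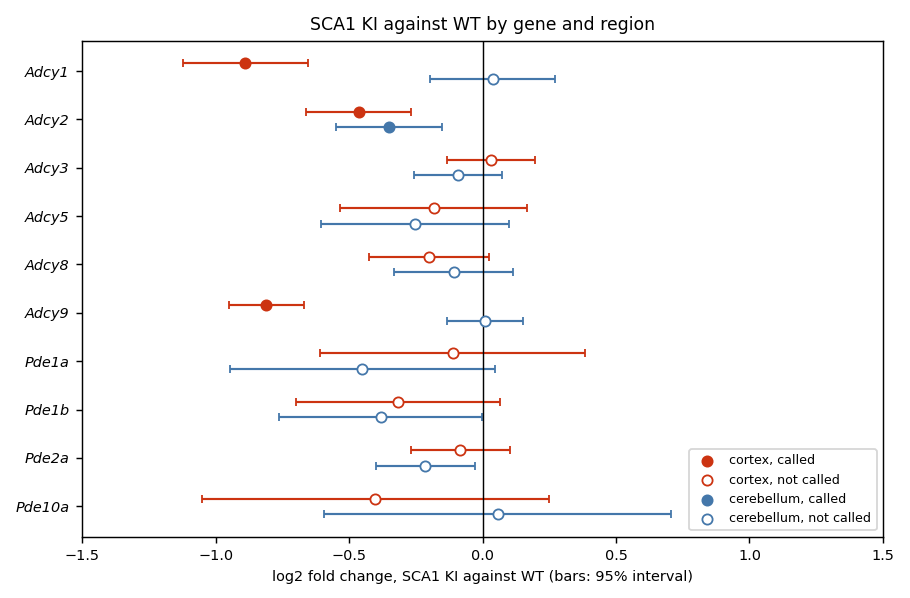
LFC of SCA1 KI against WT on the log2 scale for each gene, in the cortex (red) and the cerebellum (blue). Bars are 95% intervals from limma, filled points are DEGs and open points are not. The cortical points of Adcy1 and Adcy9, at -0.89 and -0.81, lie apart from their cerebellar points near 0, and the intervals of Pde10a and Pde1a are the widest.

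None of the 4 phosphodiesterases was called in either region by limma, edgeR or DESeq2. At an unadjusted p under 0.05 in limma there were 0 in the cortex and 2 in the cerebellum, Pde1b and Pde2a, both lower. Over all tested genes these shares were 30.5% and 17.3%. Pde1b, the calcium- and calmodulin-dependent enzyme known from striatum and cortex, had 8537, 6225 and 6712 normalized counts in WT cortex (B, C and D) and 5463, 5695 and 5942 in KI cortex (A, E and F). All KI values lay below all WT values, with WT library B far above the rest. The LFC was -0.32 with a standard error of 0.176 and an adjusted p of 0.251 by limma. In the cerebellum Pde1b had 2525, 1363 and 1723 normalized counts in WT and 1408, 1272 and 1495 in KI, in the same order of libraries as before. WT library 4 lay inside the KI range and library 2 far above it. The LFC was -0.38 with an adjusted p of 0.287 by limma, and the value turned on single libraries, since it was -0.14 without WT library 2 and -0.59 with an adjusted p of 0.0459 without WT library 4.

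Pde1a had the strongest regional difference of the 10 genes. The WT cortical libraries B, C and D held 10455, 10874 and 10333 normalized counts, and the KI libraries A, E and F held 10286, 10711 and 8436. Only KI library F stood below the rest. The cortical LFC was -0.11 with a 95% interval of -0.61 to 0.39. The cerebellar libraries held 478, 211 and 226 normalized counts in WT and 196, 230 and 197 in KI. WT library 2 held more than double the level of any other cerebellar library, and the other 5 overlapped. The cerebellar LFC of -0.45 became -0.08 without WT library 2.

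Pde2a, which links cGMP to the breakdown of cAMP, was the most abundant of the 4 phosphodiesterases in the cortex. It had 18772, 16495 and 16093 normalized counts in WT cortex and 15600, 18132 and 14797 in KI cortex, which overlap. The LFC was -0.08 with a 95% interval of -0.27 to 0.10. In the cerebellum it had 1915, 1721 and 1845 normalized counts in WT and 1641, 1627 and 1456 in KI. The KI values were all lower there, with an LFC of -0.22 and an adjusted p of 0.201 by limma. Exons of Pde2a overlap those of Gm45837 on the same strand.

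Pde10a had the widest spread of the 10 genes. The cortical WT libraries B, C and D held 7827, 3497 and 3038 normalized counts, and the KI libraries A, E and F held 2535, 3483 and 4082. WT library B stood far above all other libraries, and the rest overlapped. The LFC of -0.40 (95% interval -1.05 to 0.25, adjusted p 0.403 by limma) became 0.02 when WT library B was left out. The striatal marker Drd2, a dopamine receptor, was also highest in WT library B. It had 378, 18.8 and 45.5 normalized counts in WT libraries B, C and D. KI libraries A, E and F held 29.6, 94.1 and 222. Adora2a, the adenosine receptor of striatal neurons, had 698, 84.1 and 128 in WT and 77.9, 192 and 305 in KI. Library B was the highest for each striatal marker but Tac1, at 934 in KI library F against 582 in B. Unlike Pde10a, Ppp1r1b and Rasd2 were lower in every KI than in every WT library. Ppp1r1b had 6939, 3432 and 4741 in WT and 1419, 2312 and 2759 in KI. Of the 10 striatal markers 3 were called lower and 0 higher in KI cortex by limma, where 10.8% of all tested genes were lower. All 10 striatal markers were above 10 normalized counts in some cortical library. Their part and that of the other markers high in library B in the values of Pde10a, Adcy5 and Pde1b was not tested. In the cerebellum Pde10a had 4900, 4166 and 3232 normalized counts in WT and 4058, 3526 and 5191 in KI, which overlapped, with an LFC of 0.06 and a 95% interval of -0.59 to 0.71.

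**Figure D3:**
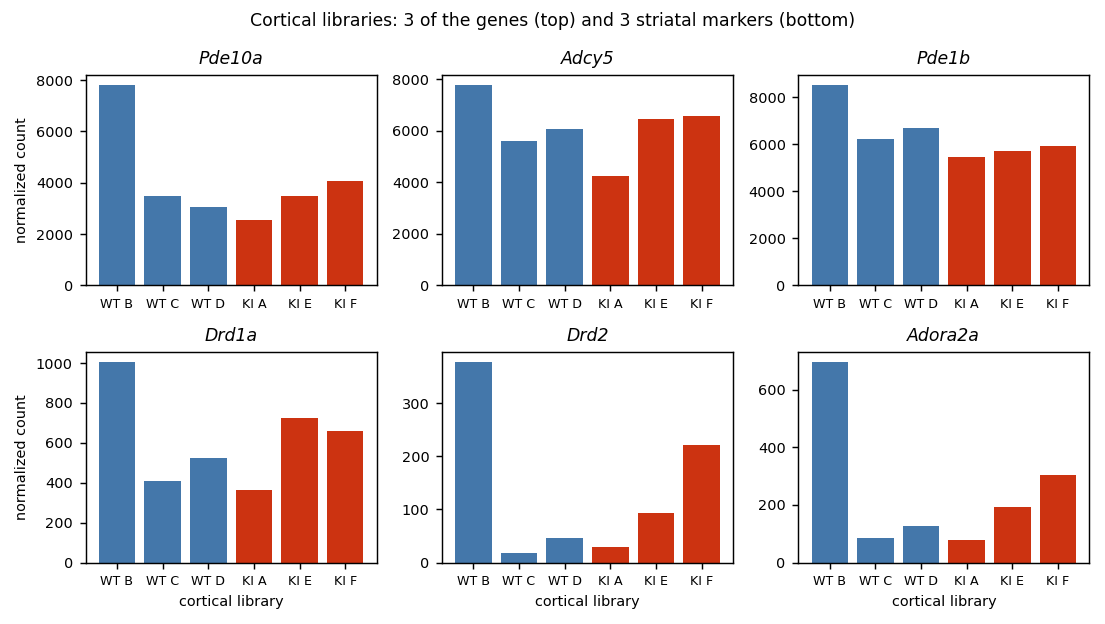
Normalized count, on linear axes from 0, of Pde10a, Adcy5 and Pde1b (top) and of the striatal markers Drd1a, Drd2 and Adora2a (bottom) in each cortical library, WT in blue and SCA1 KI in red. Each bar is 1 library. WT library B is the highest in all 6 panels, with 7827 normalized counts of Pde10a and 378 of Drd2.

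Groups that did not overlap were common among all tested genes in both comparisons. All KI libraries lay on 1 side of all WT libraries for 4 of the 10 genes in the cortex, Adcy1, Adcy2, Adcy9 and Pde1b, where this held for 30.9% of all tested genes. In the cerebellum it held for 4 of the 10, Adcy2, Adcy5, Adcy8 and Pde2a, and for 31.8% of all tested genes. In these 8 cases the KI libraries were the lower ones.

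Between the WT regions, 9 of the 10 genes differed, 7 higher in the cortex and 2 lower, where 61.7% of all tested genes differed, 31.0% higher and 30.7% lower. Pde1a was 34.6-fold higher in the cortex than in the cerebellum by group means, with an LFC of 5.21 and an adjusted p of 6.23e-10 by limma. Pde2a was 9.37-fold higher with an LFC of 3.23, and Adcy2 and Pde1b were 3.85-fold and 3.83-fold higher. Adcy5 was 2.40-fold higher, Adcy9 1.57-fold and Adcy3 1.54-fold. The genes higher in the cerebellum were the calcium-stimulated cyclases, Adcy1 with an LFC of cortex against cerebellum of -0.73 and Adcy8 with -0.31. The call of Adcy8, with an adjusted p of 0.0181, was lost without cortical WT library C, at 0.0696 by limma, and with the length and GC trend removed, where its LFC of -0.249 was within the limit. Pde10a did not pass the test, at an LFC of 0.11 with a 95% interval of -0.54 to 0.76, and without cortical WT library B its LFC was -0.31.

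Levels were compared between genes as normalized counts per kb of the longest annotated transcript, a scale on which the choice of transcript matters. Adcy1 led the order in WT cortex at 4411 ± 146 per kb, and its libraries overlapped those of Pde2a, at 4059 ± 343. Pde1a followed at 2479, Adcy2 at 1955, Pde1b at 1698, Adcy9 at 1118, Adcy5 at 926, Pde10a at 616, Adcy3 at 404 and Adcy8 at 201. Neighbours overlapped from Adcy2 to Pde1b and from Adcy9 down to Adcy3. In KI cortex Pde2a came first at 3835 ± 413 per kb, above Adcy1 at 2390 ± 280 with no overlap, and Adcy1 overlapped Pde1a at 2304. Adcy9, at 637 ± 35.3 per kb, stood below Adcy5 at 823 there, but their libraries overlapped. In the cerebellum Adcy1 stood far above the rest, at 7352 ± 1140 per kb in WT and 7490 ± 279 in KI, and Adcy9 came next at 714 and 718. Pde1a was last, at 71.7 per kb in WT and 48.8 in KI.

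**Figure D4:**
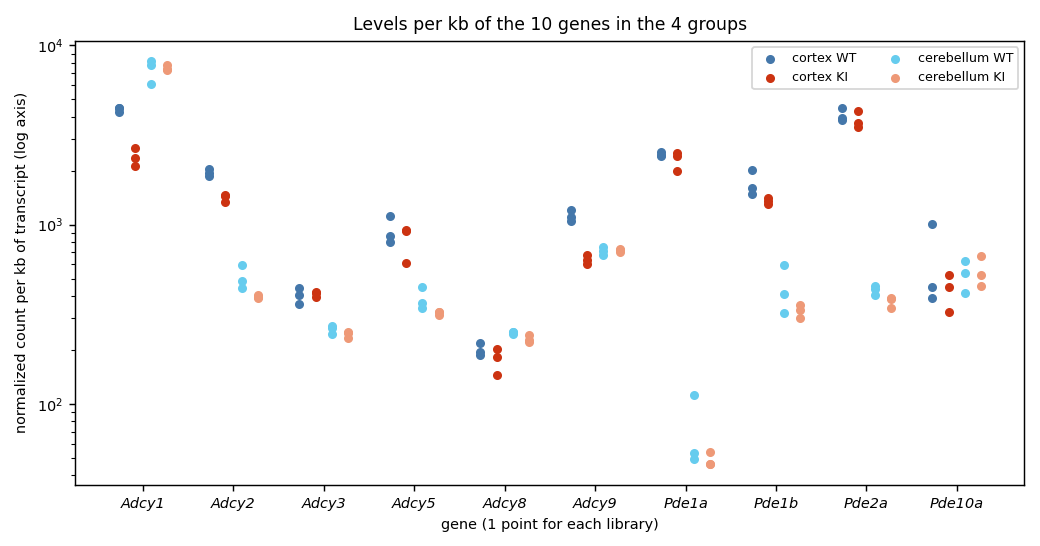
Normalized count per kb of the longest transcript, on a log axis, for each gene in the 4 groups, with 1 point for each library. Adcy1 is at 7352 per kb on average in WT cerebellum against 4411 in WT cortex, while Pde1a falls from 2479 in WT cortex to 71.7 in WT cerebellum.

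Summed over all 10 cyclases in the table, including Adcy4, Adcy6, Adcy7 and Adcy10, the level was 9433 ± 355 per kb in WT cortex and 6261 ± 475 in KI cortex (SD, n = 3). The WT libraries ran from 9049 to 9750 and the KI libraries from 5856 to 6784, so the groups were separate. The sum contains Adcy1, Adcy2 and Adcy9, each already called lower there, so this separation is no further result. Adcy1 made up 46.8% ± 0.551 of the sum in WT cortex and 38.2% ± 3.13 in KI cortex, also without overlap. Without Adcy1 the sum was 5023 in WT and 3872 in KI cortex. In the cerebellum the sum was 9778 ± 998 in WT and 9686 ± 287 in KI, and Adcy1 made up 74.9% and 77.3% of it. The 4 phosphodiesterases together gave 8852 ± 945 per kb in WT cortex and 7925 ± 617 in KI cortex, with overlap. In the cerebellum they gave 1476 in WT and 1300 in KI. This sum left out the other 17 phosphodiesterases in the table. Of the 15 tested among them, 4 were lower and 0 higher in KI cortex. It is not a sum over the whole family, so it cannot be set against that of all cyclases.

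The cyclases outside the 10 genes did not pass the test in either region. Adcy6, the close relative of Adcy5 that calcium also inhibits, had a mean of 2060 normalized counts in WT and 2025 in KI cortex, with an LFC of -0.02 and a 95% interval of -0.19 to 0.14. Adcy4 and Adcy7 had cortical LFCs of -0.11 and -0.09 and cerebellar LFCs of -0.01 and -0.66, the latter with an adjusted p of 0.113 by limma. For these 3 tested genes 0 calls were made in the cortex by limma, edgeR or DESeq2 and 0 at an unadjusted p under 0.05. In the cerebellum limma and edgeR called 0 and DESeq2 called 1, as did an unadjusted p under 0.05 in limma. Adcy10, the soluble cyclase, was below the filter, with 12 reads or fewer in every library.

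Of 15 tested other phosphodiesterases, 4 were lower and 0 higher in KI cortex, where 10.8% of all tested genes were lower and 4.82% higher. Among them were Pde7b, a cAMP-specific enzyme, with an LFC of -0.78, Pde8b, also cAMP-specific, with -0.51, and Pde5a, a cGMP-specific enzyme, with -0.50. In the cerebellum Pde3a, which cGMP inhibits, rose by an LFC of 1.05 from a mean of 572 to 1185 normalized counts, and Pde11a fell by 2.65 on the log2 scale from 41.3 to 5.22. The call of Pde3a was lost without cortical WT library B and cerebellar WT library 2, at an LFC of 1.01 and an adjusted p of 0.0903 by limma. The median LFC of these genes was -0.14 in the cortex and -0.09 in the cerebellum.

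Most of the called receptors upstream of the cyclases were lower in SCA1 KI. The same held of all DEGs, which made up 10.8% of tested genes as lower and 4.82% as higher in the cortex, and 4.44% and 0.917% in the cerebellum. Of 29 tested Gi-coupled receptors 13 were lower and 0 higher in KI cortex, and 10 were lower and 1 higher in KI cerebellum. In the cortex the leading genes were the metabotropic glutamate receptors Grm2 and Grm3, with LFCs of -1.44 and -0.87, and the adenosine receptor Adora1, with -0.67. In the cerebellum the serotonin receptor Htr1a, the somatostatin receptor Sstr1 and the neuropeptide Y receptor Npy1r had LFCs of -3.47, -1.38 and -1.34. The mean of Htr1a went from 211 ± 126 normalized counts in WT to 16.6 ± 5.11 in KI (SD, n = 3). Sstr3 had an LFC of 0.41. This call was lost without cortical WT library B and cerebellar WT library 2, at an adjusted p of 0.112 by limma. Of 20 Gs-coupled receptors 2 were lower in the cortex, a share near that of all tested genes, the beta-adrenergic receptor Adrb1 with an LFC of -0.68 and the vasoactive intestinal peptide receptor Vipr1 with -0.57. In the cerebellum 4 were lower, among them the serotonin receptors Htr4 and Htr7, with -2.13 and -1.39, and Ptger2, with -1.09, whose call was lost without these 2 libraries. The cerebellar calls came with higher thalamic and midbrain markers in the WT libraries. In the cerebellum the calls lower in KI numbered 9 of the Gi-coupled and 3 of the Gs-coupled receptors when these 2 libraries were left out. The part of these markers in the calls was not tested. In the cortex the Gi-coupled calls numbered 10 without these 2 libraries.

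The next lists are the G proteins and the targets of the cyclic nucleotides, read against the 10.8% of all tested genes lower in the cortex and 4.44% in the cerebellum. The list of G proteins held 17 tested genes, Ric8a and Ric8b besides the subunits. None of the 17 was called in the cortex by limma or edgeR, and 1 was called higher by DESeq2. At an unadjusted p under 0.05 in limma 4 were higher there and 0 lower. In the cerebellum 1 of the 17, the gamma subunit Gng13, was called lower and fell by 0.84 on the log2 scale. Of 9 subunits and inhibitors of protein kinase A, the regulatory subunit Prkar1b and the inhibitor Pkig were lower in the cortex, with LFCs of -0.34 and -0.36, and the regulatory subunit Prkar2b was lower in the cerebellum, with -0.57. Among 11 A-kinase anchoring proteins, which place the kinase in the cell, Akap5 and Akap6 fell by 0.67 and 0.28 in the cortex and Akap2 by 0.31 in the cerebellum, all on the log2 scale. The call of Akap6 was lost without cortical WT library B and cerebellar WT library 2, at an LFC of -0.25 and an adjusted p of 0.0944 by limma. Of 10 exchange factors and channels, the exchange factor Rapgef4 had a cortical LFC of -0.40 and the channel Hcn3 one of 0.57. In the cerebellum none of these 10 was called by limma, edgeR or DESeq2, and 3 had an unadjusted p under 0.05 in limma. On the cGMP side the guanylyl cyclase subunits Gucy1a3 and Gucy1a2 were lower in the cortex, with LFCs of -0.44 and -0.35, and the kinase Prkg2 was lower in the cerebellum, with -1.42. The Prkg2 call was lost without the same 2 libraries, at an adjusted p of 0.0695 by limma.

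At the level of transcription, Crtc1, a coactivator of CREB, was lower in KI cortex with an LFC of -0.40, and Crtc2 was higher with 0.29, the only calls among 8 genes of the CREB family and its coactivators. Of 9 early genes that cAMP induces, 3 were lower in KI cortex and 0 higher, where 10.8% and 4.82% of all tested genes were. They were Arc, with an LFC of -1.39, Egr1, with -0.76, and Per1, with -0.74. In the cerebellum 0 of these 9 and 0 of the 8 were called by limma, edgeR or DESeq2, and 0 of the 9 and 1 of the 8 had an unadjusted p under 0.05 in limma. The median LFC of the early genes was -0.60 in the cortex and -0.11 in the cerebellum.

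**Figure D5:**
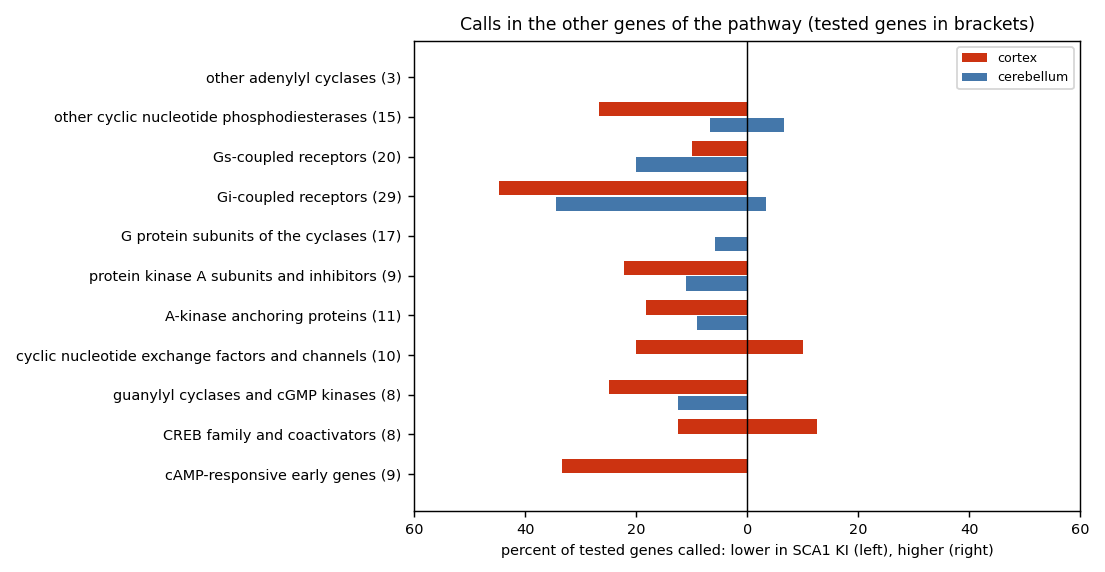
Percent of the tested genes of each list of the cAMP and cGMP pathway called lower (left of 0) or higher (right of 0) in SCA1 KI, in the cortex (red) and the cerebellum (blue), with the number of tested genes in brackets. The Gi-coupled receptors, with 13 of 29 genes lower in the cortex and 10 of 29 in the cerebellum, have the longest bars, against 10.8% and 4.44% of all tested genes.

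The genes most like each of the 10 were found by the root mean square difference of log2(normalized count + 1) over the 12 libraries after the mean of each region was subtracted. Among the closest to Adcy1 were Olfm1 and Myh7b, with differences of 0.070 and 0.071, where Adcy1 itself deviated by 0.34 from its region means. Closest to Adcy9, with a deviation of 0.29, were Whrn, Nfic and Znfx1, at 0.057, 0.061 and 0.069. Adcy2 was nearest to Rnf157, Nefl and Nsmf, at 0.056, 0.059 and 0.064. The genes nearest to Pde10a, Psme2b, Itga9 and Dnah9, differed by 0.19 to 0.23, where Pde10a itself deviated by 0.40 from its region means. Nearest to Adcy3 were Pphln1, Ehd2 and Gpatch2, to Adcy5 Notch3, Plekhg1 and Kcnn3, and to Adcy8 2310067B10Rik, Sh3bp4 and Nf1. Nearest to Pde1a were Tmem196, Creg2 and Eya4, to Pde1b Limk1, Trerf1 and Pde8a, and to Pde2a Jag2, Tmem104 and Map6. These differences ran from 0.041 for Pphln1 to 0.15 for Eya4. These libraries are the ones in which the groups were compared, so the likeness describes them only.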

How the data were processed

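The authors aligned paired-end reads of polyadenylated RNA to mm10 with STAR, counted reads per gene by featureCounts and scaled the counts with DESeq2. They deposited 1 table whose signal is each read count over a scaling factor for its library. Versions and gene annotation are not given in the sources used here. All values (100%) were whole reads within 0.01, and these reads were recovered. The main test was limma 3.58.1 (R 4.3.3), with a trend on the mean and Benjamini-Hochberg adjustment, on log2(normalized count + 1) with 4 group means over 12 libraries. Genes with a mean under 10 were left out (390 of 15759), and this scale understates the change of low genes. Alternatives were edgeR 4.0.16 and DESeq2 1.42.0 on the recovered reads, pseudocounts of 0.5 and 5, other filters and LFC limits, centring, removal of a length and GC trend, each region alone and each library left out. Lengths and overlaps came from GENCODE vM21 on GRCm38. On data simulated for the cortical comparison over 15369 genes limma recovered 78% of 1.5-fold and 96% of 2-fold changes. The 100 genes changed at each fold had a mean over 100, and noise was drawn for each gene on its own. These rates therefore do not cover low genes or shifts shared by many genes of a library. Replicates differed by a chi-square per gene of 7.54 to 36.6. The highest values were those of cortical KI library A, 33.5 against E and 36.6 against F. Named were all 10 genes, up to 3 called genes of each pathway list per direction and region by p, all other cyclases, and the 3 genes most like each of the 10, of which some are not reported here. The 10 genes, lists and tests were chosen with earlier results of these data known.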

Additional observations from a re-analysis of the deposited data

Results flagged for a closer look

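The response of Adcy1 and of Adcy9 to SCA1 KI differed between cortex and cerebellum by the interaction test in limma. The difference of the cortical and the cerebellar LFC was -0.93 for Adcy1, with an adjusted p of 0.00290, and -0.82 for Adcy9, with an adjusted p of 0.000429. In the cortex all 3 KI libraries lay below all 3 WT libraries for both genes, and in the cerebellum the groups overlapped for both. The call held in all 9 alternatives and all 12 fits without a library that were run for it, with values of -1.01 to -0.72 for Adcy1 and -0.87 to -0.73 for Adcy9. No group had enough libraries for a test of single outlying values.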

How the results depend on the processing

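The cortical calls of Adcy1, Adcy2 and Adcy9 held in every alternative but an LFC limit of 1. Under that limit 323 genes and 0 of the 10 were DEGs in the cortex, 312 and 0 in the cerebellum, and 3620 and 5 between the WT regions, since fewer genes can pass it. The cerebellar call of Adcy2 was lost, leaving 0 of the 10, when each region was fitted alone, with libraries centred on their median, and without cortical WT library B and cerebellar WT library 2, an alternative chosen after seeing the data. With 1 library left out the call was lost in 10 of 12 fits (LFC -0.45 to -0.23), the 10 genes gave 0 to 2 cerebellar DEGs, all tested genes gave 399 to 977 (fewest without KI library 1, and 454 without KI 3 and 512 without KI 5), and interactions numbered 783 (without cerebellar KI 1, and 833 without KI 3) to 1267. Several values that were never called changed sign, and the cause was not tested. Without the 2 libraries the LFC was 0.019 for Pde10a in the cortex, -0.10 for Adcy1 and -0.026 for Adcy9 in the cerebellum, -0.044 and -0.040 for the interactions of Pde1a and Pde1b, and -0.17 for Pde10a between the WT regions. With the length and GC trend removed the interaction of Adcy8 was 0.0086. With 1 library left out the cortical LFC spanned -0.047 to 0.10 for Adcy3, -0.29 to 0.022 for Adcy5 and -0.66 to 0.019 for Pde10a. The cerebellar LFC spanned -0.10 to 0.12 for Adcy1, -0.026 to 0.044 for Adcy9 and -0.10 to 0.20 for Pde10a. Interactions spanned -0.045 to 0.28 for Adcy5, -0.20 to 0.044 for Adcy8, -0.037 to 0.55 for Pde1a and -0.17 to 0.27 for Pde1b, and the WT regional LFC of Pde10a spanned -0.31 to 0.37. No paired analysis was possible because the deposited columns carry no replicate number of the labels. With 3 libraries a group the interval of Pde10a in the cortex, -1.05 to 0.25, stayed wide.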
